A study of Mus musculus with 5 samples.

Results

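Lrat, Rbp4, Cyp26b1, Aldh1a1, Rdh10, Dhrs3 and Rarb are genes that store, carry, make, break down and sense vitamin A derivatives (retinoids). These 7 genes were chosen by name from the 19736 genes listed for the libraries, 19024 of them with a molecule in any library. They were followed through every cell class of mouse liver non-parenchymal cells. The mice were wild-type males that had surgery at an age of 9 weeks, with livers taken 2 weeks after it. The sham group (2 libraries) had control surgery, and the pIVCL group (3 libraries) had a partial ligation of the inferior vena cava, which narrows the outflow of blood from the liver. Livers of both groups were perfused with pronase and collagenase, hepatocytes were spun out at low speed, and dead cells and erythrocytes were removed on a density gradient, so that shares of cells are shares of what this preparation kept. Captured cells were read with molecular identifiers on the BD Rhapsody system, and a molecule here is 1 such corrected count. By the labels, batch 2021.3 holds sham 1, sham 2 and pIVCL 1, and batch 2021.7 holds pIVCL 2 and pIVCL 3 but no sham library. The labels do not say whether animals were pooled, and each p-value therefore rests on the spread among these libraries, part of which may be technical.

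Retinol reaches tissues from hepatocytes bound to retinol-binding protein (Rbp4). Hepatic stellate cells, which lie between hepatocytes and the sinusoidal endothelium, take it up and esterify it with lecithin retinol acyltransferase (Lrat) for storage in lipid droplets. Elsewhere retinol is oxidised to retinal by Rdh10 and to retinoic acid by Aldh1a1, Dhrs3 reduces retinal back to retinol, Cyp26b1 degrades retinoic acid, and retinoic acid acts through nuclear receptors such as Rarb. The Rarb, Dhrs3 and Cyp26 genes are themselves well-known targets of retinoic acid.

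The 250 bases before the annotated starts of Rarb, Dhrs3 and Cyp26b1 are shown, taken from RefSeq on GRCm38.p6. The molecule counts were made on GRCm39, and no coordinates were carried over. Each sequence runs 5′ to 3′ on the strand of its gene. Capitals mark the half-sites of a direct repeat with 5 bases between them (DR5), the arrangement best known from retinoic acid response elements.
Rarb, chr14:16575477-16575726, minus strand: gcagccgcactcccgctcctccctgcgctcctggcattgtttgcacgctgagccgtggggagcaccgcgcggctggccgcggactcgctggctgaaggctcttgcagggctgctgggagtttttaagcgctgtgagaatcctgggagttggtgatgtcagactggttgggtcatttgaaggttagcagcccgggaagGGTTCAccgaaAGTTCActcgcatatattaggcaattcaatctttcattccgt
Dhrs3, chr4:144892577-144892826, plus strand (the first of 3 annotated windows): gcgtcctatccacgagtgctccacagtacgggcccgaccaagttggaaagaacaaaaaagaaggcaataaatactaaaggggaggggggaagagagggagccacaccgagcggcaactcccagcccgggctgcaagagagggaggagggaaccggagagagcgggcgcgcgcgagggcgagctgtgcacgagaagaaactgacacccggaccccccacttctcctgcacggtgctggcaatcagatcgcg
Cyp26b1, chr6:84593811-84594060, minus strand: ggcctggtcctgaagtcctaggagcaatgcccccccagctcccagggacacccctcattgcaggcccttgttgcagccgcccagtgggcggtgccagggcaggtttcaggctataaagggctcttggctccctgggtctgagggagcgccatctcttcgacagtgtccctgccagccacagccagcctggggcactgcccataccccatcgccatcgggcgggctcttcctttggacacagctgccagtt
The half-sites searched, on both strands, were AGGTCA as the consensus, GGGTCA as its first variant, AGTTCA as the second and GGTTCA as the third, and direct repeats were 2 of them in the same direction with 1, 2 or 5 bases between. The Rarb window held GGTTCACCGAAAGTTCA, a DR5, at bases −53 to −37 before the start, and a separate GGGTCA at −83 to −78. A DR5 of this kind was present in 29 of 32851 promoter windows of the same length (0.0883%), and a half-site in 12694 (38.6%). Among the 10 windows of the 6 members in the table, 1 of 2 Rbp4 and 1 of 2 Aldh1a1 windows held a single half-site, and those of Lrat, Dhrs3 and Cyp26b1 held none. A match is a description of the letters, not evidence of a bound site, and where none was found this holds for these windows only.

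The libraries held 12448260 to 30523228 molecules in 2680 to 5000 cells, with medians of 2439.5 to 5416 molecules per cell, lowest in pIVCL 3 and highest in sham 1. After filters, 16672 cells were retained, and pairs of libraries shared 8 to 30 cell barcodes. The stellate cluster counted for 12 of its 12 fixed markers, Lrat not among them, and the named endothelial clusters for 11 or 12 of 12. Stellate cells numbered 76 and 34 in sham and 273, 323 and 107 in pIVCL, which is 1.76 and 0.92% of retained sham cells and 10.8, 9.56 and 3.90% of retained pIVCL cells. Endothelial cells numbered 2673 and 2351 in sham and 1497, 1624 and 708 in pIVCL. The clusters that held most endothelial cells differed between the groups: clusters 10, 12 and 13 held 80.8 and 78.8% of them in sham and 18.4, 4.0 and 1.7% in pIVCL, whereas clusters 5, 9 and 21 held 9.20 and 12.3% in sham and 73.2, 87.6 and 83.3% in pIVCL. Library pIVCL 3 stood apart by its 417 retained hepatocytes (4 to 45 elsewhere) and 489 B cells (16 to 83 elsewhere). Hepatocyte transcripts were also counted in other classes, where free RNA is a possible source that was not tested. A list of 30 hepatocyte genes made up 0.108 and 0.0679% of stellate molecules in sham and 0.354, 0.373 and 0.269% in pIVCL, and 0.0637 and 0.0328% of endothelial molecules in sham against 0.119, 0.0888 and 0.101% in pIVCL.

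The members differed in the class where they were highest. Lrat was a stellate transcript, Rbp4 and Aldh1a1 were highest in hepatocytes, and Cyp26b1 was highest in the endothelium. Dhrs3 had its highest mean in cholangiocytes, followed by endothelium, Rarb was at similar levels in endothelium, fibroblasts and stellate cells, and Rdh10 was low everywhere. Levels are given as molecules per 1000000 molecules of the class in a library (CPM), in the order sham 1 and sham 2, then pIVCL 1, pIVCL 2 and pIVCL 3, and means over all 5 libraries carry their SD. Overlap of the groups is described for 2 against 3 libraries, and the share of all genes without overlap was not counted.

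**Figure D1:**
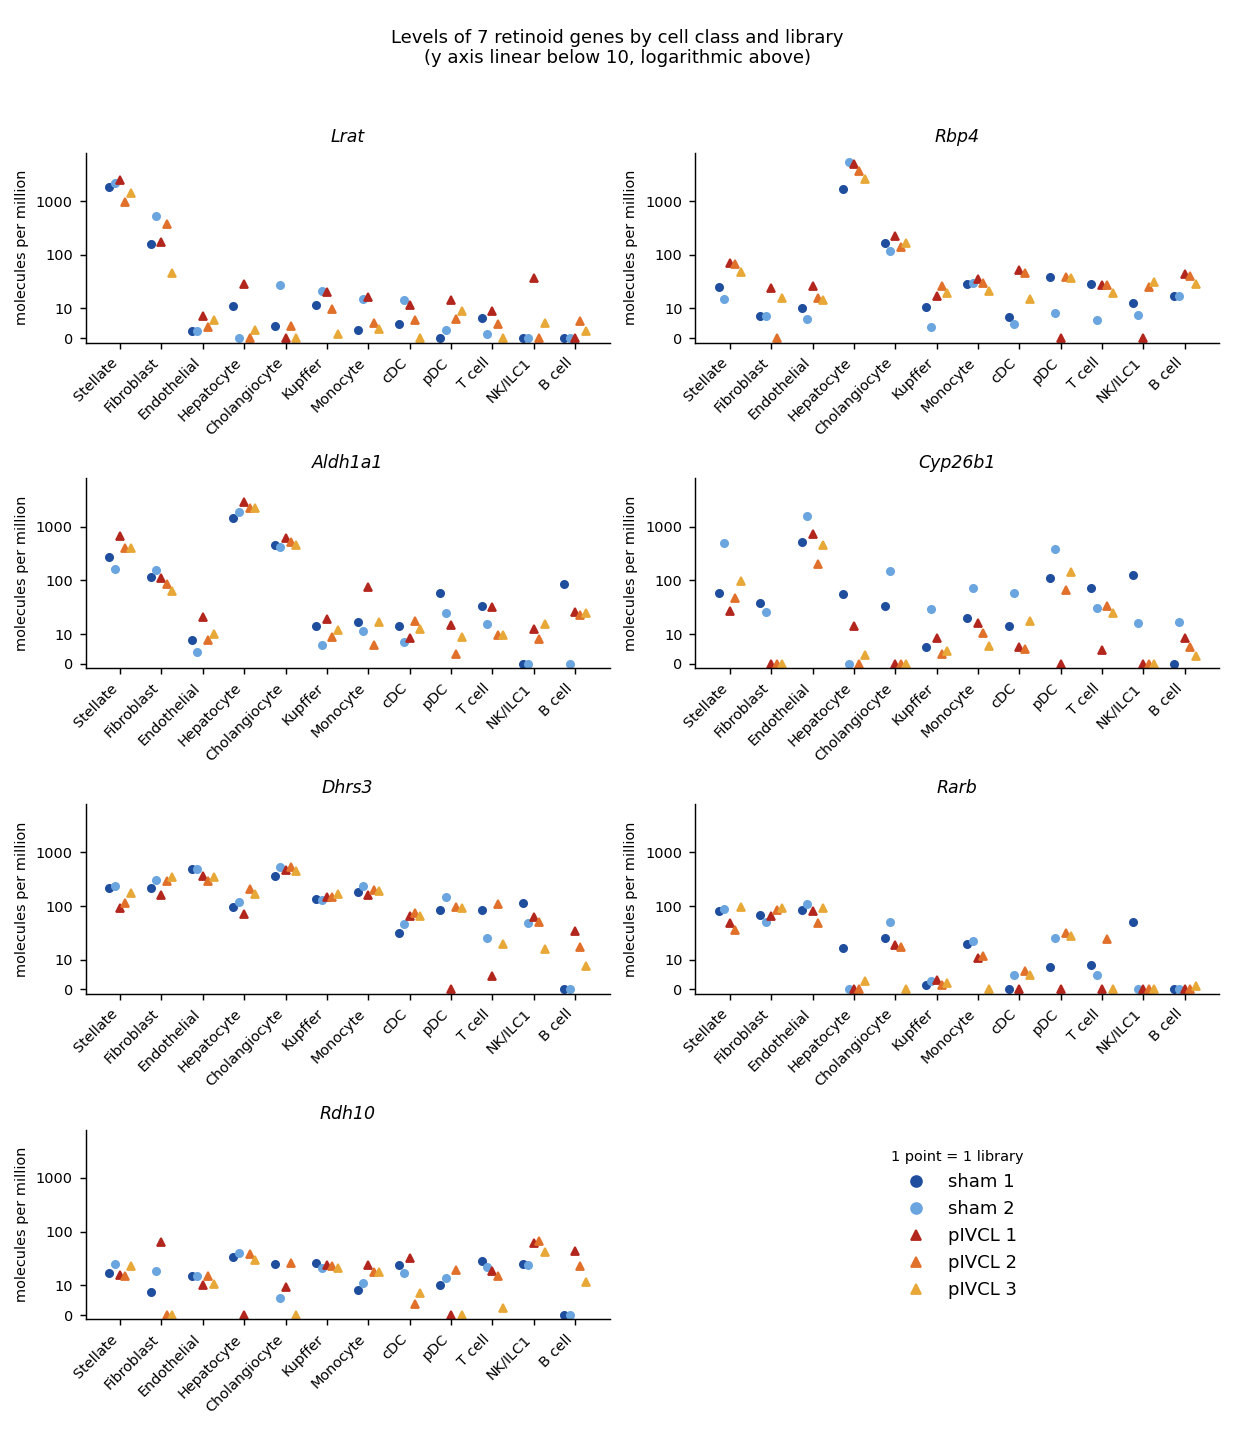
Level of each of the 7 genes in CPM by cell class, 1 point per library, sham as circles and pIVCL as triangles, on an axis that is linear below 10 and logarithmic above. Within each library, Lrat stands above the other classes in stellate cells (949 to 2475 CPM), Cyp26b1 in endothelium (200 to 1606 CPM), and Rbp4 in hepatocytes (1682 to 5328 CPM).

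Lrat, the esterifying enzyme of storage, was at 1848 and 2209 CPM in sham stellate cells (655 and 449 molecules) and at 2475, 949 and 1444 CPM in pIVCL stellate cells (3237, 1726 and 953 molecules). The groups overlapped, with the highest and the lowest level both in pIVCL libraries. Over all 5 libraries the stellate level was 1785 ± 607 CPM, that of fibroblasts 258 ± 192 CPM and that of Kupffer cells 13 ± 8.3 CPM, and the ranges of these classes did not overlap. Endothelial cells had 2.29 and 2.55 CPM in sham and 7.34, 3.86 and 6.27 CPM in pIVCL. These levels lie in the range of T cells (0 to 9.02 CPM), a class that should lack the gene, and were not told apart from background. The T-cell range is a coarse guide, since 3 molecules are 13.5 CPM in the T-cell sum of pIVCL 1. Per stellate cell the median was 8 and 10 Lrat molecules in sham and 10, 5 and 9 in pIVCL.

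Most stellate cells carried Lrat in every library. After each cell was thinned to 1000 molecules, 75.0 and 73.5% of sham stellate cells and 85.3, 59.1 and 67.6% of pIVCL stellate cells had at least 1 Lrat molecule (2 shallower cells of pIVCL 3 left out). Before thinning these shares were 94.7, 88.2, 97.8, 93.2 and 95.3%. T cells, thinned alike, had shares of 0 to 0.641%. Median depth before thinning was 3514 to 5734 molecules in stellate cells and 2386 to 3330 in T cells. The share in pIVCL 2 was the lowest of the 5, as was its level.

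Over all retained cells, Lrat was at 34.2 and 45.5 CPM in sham and 306, 104 and 93.0 CPM in pIVCL, without overlap. The stellate share of retained cells was likewise higher in pIVCL without overlap. Within pIVCL the total had the same order as this share (10.8, 9.56 and 3.90%). Within sham the order was reversed: sham 2 had the smaller share (0.92 against 1.76%) and the higher total. What part the stellate share had in the total was not tested. Stellate cells carried 70.6 and 43.7% of Lrat molecules in sham and 84.7, 92.6 and 94.8% in pIVCL. Unnamed clusters carried 12.5 and 28.2% in sham and 12.1, 3.48 and 1.69% in pIVCL. One of these, of 60 cells, had 12 of 12 stellate markers together with Kupffer markers, at a median depth 3.16 times that of its libraries. Fibroblasts carried 2.26 and 13.9% in sham and 0.30 to 0.58% in pIVCL.

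**Figure D2:**
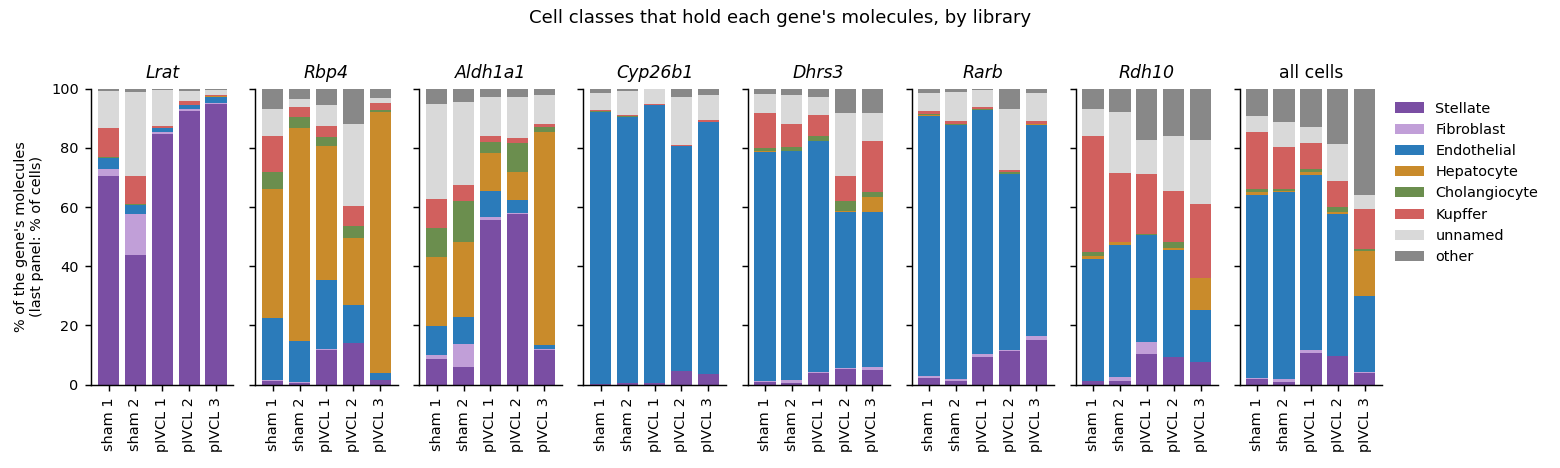
Share of each gene's molecules (percent, bars from 0 to 100) carried by each cell class in each library. Grey parts are unnamed cells and the pooled remaining classes, and the last panel gives the share of cells of each class. For Lrat the stellate share is 43.7 to 70.6% in sham and 84.7 to 94.8% in pIVCL, and for Cyp26b1 the endothelial share is 76.1 to 93.8% in all 5 libraries.

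Rbp4, the plasma carrier made by hepatocytes, was at 1682 and 5328 CPM in the few hepatocytes of sham and at 4916, 3713 and 2557 CPM in those of pIVCL (3639 ± 1540 over 5 libraries). Cholangiocytes followed at 164 ± 41.2 CPM and stellate cells at 44.6 ± 24.3 CPM, and neither range overlapped that above it. In stellate cells the level was 25.4 and 14.8 CPM in sham (9 and 3 molecules) and 69.6, 66.5 and 47.0 CPM in pIVCL (91, 121 and 31 molecules). The stellate groups did not overlap. The hepatocyte-list share of the same stellate sums moved with it, as given above. Per 100 molecules of the hepatocyte list, Rbp4 had 1.86 molecules in stellate cells, 1.81 in endothelium, 2.12 in T cells and 2.25 in hepatocytes themselves. In Kupffer cells the ratio was 0.729. These ratios are pooled over the 5 libraries. By library, hepatocytes had 1.567 and 3.235 in sham and 3.975, 2.207 and 2.092 in pIVCL. Stellate cells had 2.356 and 2.174 in sham and 1.968, 1.785 and 1.745 in pIVCL. By group, the ratio was 2.31 in sham and 1.84 in pIVCL stellate cells (12 and 243 Rbp4 molecules), 1.692 and 1.898 in endothelium and 1.84 and 2.35 in T cells, in no constant order. What part free hepatocyte RNA has in the stellate level was not tested.

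Aldh1a1, which oxidises retinal to retinoic acid, was highest in hepatocytes (2154 ± 518 CPM), followed by cholangiocytes (492 ± 74.6), stellate cells (384 ± 194) and fibroblasts (105 ± 34.5). The ranges of cholangiocytes and stellate cells overlapped. Stellate cells had 276 and 162 CPM in sham (98 and 33 molecules) and 683, 399 and 400 CPM in pIVCL (893, 726 and 264 molecules). All 3 pIVCL libraries lay above both sham libraries. For this gene the ratio to the hepatocyte list was not that of hepatocytes: it was 14.7 molecules per 100 in stellate cells and 11.1 in fibroblasts, against 1.73 in hepatocytes, 1.27 in endothelium and 1.91 in T cells. Within stellate cells the ratio was 25.7 and 23.9 in sham and 19.3, 10.7 and 14.9 in pIVCL. After thinning, 28.9 and 11.8% of sham and 45.1, 34.1 and 34.3% of pIVCL stellate cells had a molecule (59.2, 44.1, 81.0, 78.6 and 72.9% before thinning).

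**Figure D3:**
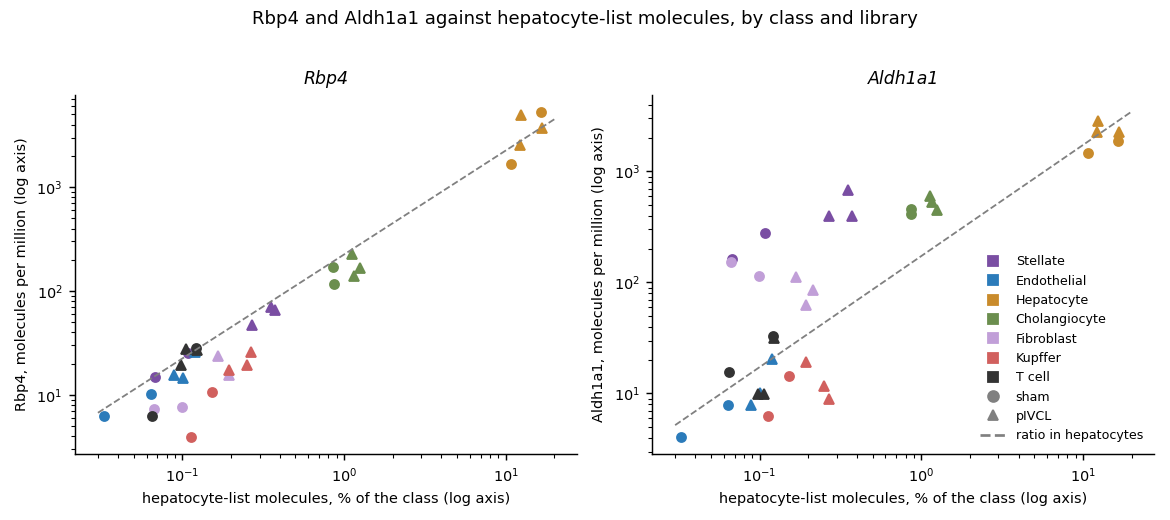
CPM of Rbp4 (left) and Aldh1a1 (right) against the percent of a class's molecules that belong to a 30-gene hepatocyte list, both axes logarithmic, 1 point per class and library; the dashed line is the ratio in hepatocytes, and the fibroblast sum of pIVCL 2, with 0 Rbp4 molecules, is not drawn. Stellate cells lie near the line for Rbp4 (1.86 against 2.25 molecules per 100 of the list). They lie above it for Aldh1a1 (14.7 against 1.73), all ratios pooled over libraries.

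Rdh10, the retinol dehydrogenase of the first oxidation step, was low in all classes. Its highest mean was in NK cells and ILC1 (43.7 ± 19.8 CPM, from sums of 2 to 8 molecules), followed by hepatocytes (28.3 ± 16.4), Kupffer cells (22.9 ± 2.08) and stellate cells (18.9 ± 4.49), and these neighbours did not differ beyond their spread. Kupffer cells had 25.7 and 20.7 CPM in sham and 24.3, 22.4 and 21.3 CPM in pIVCL. Endothelial cells had 14.7 and 15.1 CPM in sham and 10.1, 14.9 and 10.5 CPM in pIVCL. In both classes the groups overlapped.

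Dhrs3, the reductase that returns retinal to retinol, was highest in cholangiocytes (476 ± 73.5 CPM) and endothelium (394 ± 88.4), whose ranges overlapped, followed by fibroblasts (265 ± 73.6), monocytes (193 ± 27.8), stellate cells (167 ± 63.8) and Kupffer cells (147 ± 13.3). Endothelial cells had 481 and 493 CPM in sham (6945 and 5994 molecules) and 360, 292 and 345 CPM in pIVCL (2504, 2044 and 1157 molecules). Every pIVCL library was lower than either sham library. In stellate cells the level was 217 and 241 CPM in sham (77 and 49 molecules) and 93.3, 114 and 171 CPM in pIVCL (122, 207 and 113 molecules), again without overlap. Kupffer cells had 138 and 132 CPM in sham and 148, 150 and 166 CPM in pIVCL. This order was opposite, but the difference was not called (edgeR log2 fold change 0.17 ± 0.13, adjusted p = 0.59). Within the endothelium, the cluster led by Wnt9b, Edn1 and Vwf had the highest Dhrs3 level of 9 clusters in both sham libraries (887 and 1022 CPM), and 464, 514 and 700 CPM in pIVCL. The large-vessel cluster with Gja5 was low, at 88.1 to 138 CPM over the 5 libraries.

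Cyp26b1, which degrades retinoic acid, had the widest range between libraries of the 7 genes in the endothelium, as the ratio of highest to lowest level. Its endothelial level was 515 and 1606 CPM in sham (7435 and 19536 molecules) and 724, 200 and 450 CPM in pIVCL (5030, 1400 and 1509 molecules). Library sham 2 stood above every other library, and sham 1 lay within the pIVCL range. After thinning, 33.6 and 63.4% of sham and 34.8, 12.5 and 21.5% of pIVCL endothelial cells had a molecule (64.8, 89.1, 58.1, 28.1 and 45.6% before thinning), against 0 to 1.56% of T cells. In sham 2 the gene was also highest in stellate cells, Kupffer cells and plasmacytoid dendritic cells. It was at 497 CPM in stellate cells (59.2 in sham 1 and 26.8, 46.2 and 98.5 in pIVCL), at 29.8 CPM in Kupffer cells (3.14 to 8.73 elsewhere) and at 387 CPM in plasmacytoid dendritic cells (0 to 145 elsewhere). T cells did not follow, with 31.2 CPM in sham 2 and 71.6 CPM in sham 1. Endothelium carried 91.7 and 89.97% of Cyp26b1 molecules in sham and 93.8, 76.1 and 85.0% in pIVCL.

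Rarb, the retinoic acid receptor beta, was at 83.3 and 111 CPM in sham endothelium (1202 and 1354 molecules) and at 82.5, 48.3 and 90.1 CPM in pIVCL endothelium (573, 338 and 302 molecules). The groups overlapped. Its means over 5 libraries, 83.1 ± 22.7 CPM in endothelium, 72.5 ± 16.8 in fibroblasts and 70.4 ± 26.6 in stellate cells, did not differ beyond their spread. Stellate cells had 81.8 and 88.6 CPM in sham and 48.9, 35.7 and 97.0 CPM in pIVCL. Kupffer cells had 1.35 to 3.12 CPM. The Wnt9b, Edn1 and Vwf cluster lay above the endothelium as a whole in every library, at 283 and 341 CPM in sham and 184, 170 and 209 CPM in pIVCL, without overlap.

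Stellate cells and endothelium were compared within libraries by edgeR's quasi-likelihood test with the library as a block, adjusted by Benjamini-Hochberg over 11389 genes, of which 42.4% were called. Of the 7 members, 5 were called. Lrat was higher in stellate cells by 8.86 ± 0.34 on the log2 scale (adjusted p = 4.9e-07), Aldh1a1 by 5.41 ± 0.15 (adjusted p = 1.9e-13) and Rbp4 by 1.82 ± 0.20 (adjusted p = 2.9e-06). The hepatocyte-list share was also higher in the stellate than in the endothelial sum of every library (0.373 against 0.0888% in pIVCL 2), and its part in the Rbp4 difference was not tested. Cyp26b1 was lower in stellate cells (log2 difference −2.56 ± 0.53, adjusted p = 0.019), as was Dhrs3 (−1.18 ± 0.14, adjusted p = 6.4e-06). The Cyp26b1 call was lost without sham 1 (adjusted p = 0.057) and without pIVCL 3 (adjusted p = 0.054). Rdh10 (0.63 ± 0.25, adjusted p = 0.057) and Rarb (−0.16 ± 0.15, adjusted p = 0.43) were not called. Of the other retinoid genes on the list, 19 of 44 tested were higher in stellate cells and 8 lower. Those higher included Bco1 (8.25), which cleaves beta-carotene, Rarres2 (7.96), which encodes chemerin, and Aldh1a3 (5.06), another retinal dehydrogenase. Scarb1, a lipoprotein and carotenoid receptor, was lower by 0.96.

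Whether the ligation changed the members was asked in each class by edgeR's quasi-likelihood test on sums per library, 3 pIVCL against 2 sham, with adjustment over all genes of the class. In stellate cells 0 of 7 members were called, where 0.488% of 8000 genes were (913 genes had an unadjusted p below 0.05). Unadjusted, 3 members had p below 0.05 (Rbp4, Aldh1a1 and Dhrs3), and DESeq2 called 0. Log2 fold changes were −0.20 ± 0.35 for Lrat (adjusted p = 0.88), 1.67 ± 0.40 for Rbp4 (adjusted p = 0.11), 1.28 ± 0.31 for Aldh1a1 (adjusted p = 0.12) and −0.75 ± 0.27 for Dhrs3 (adjusted p = 0.33). Cyp26b1 (−2.16 ± 1.07, adjusted p = 0.55) rested on sham 2, without which its value was 0.025. Rdh10 was at −0.10 ± 0.51 (adjusted p = 0.97) and Rarb at −0.43 ± 0.42 (adjusted p = 0.74). Simulated 2-fold changes were recovered for 15% of genes in these stellate sums and 4-fold changes for 57%, so that a change of these sizes could be missed.

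The call for Rbp4 and Aldh1a1 in stellate cells turned on the model. With batch as a term, 3 members were called, namely Aldh1a1 (1.73, adjusted p = 0.00011), Rbp4 (1.83, adjusted p = 0.017) and Dhrs3, and the same 3 were called within batch 2021.3 alone, where 1 pIVCL library stood against 2 sham libraries and its spread was assumed to be that of sham. Since batch 2021.7 holds no sham library, the fit with batch as a term also rests on pIVCL 1 against sham. With the replicate number as a block, Rbp4 (1.85, adjusted p = 0.035), Aldh1a1 (1.45, adjusted p = 0.0038) and Cyp26b1 were called. Without pIVCL 1, Aldh1a1 alone was called (0.96, adjusted p = 0.035). Lrat was not called in any of these. The 0.488% of genes given above belongs to the fit reported. Shares of all genes called in these alternative fits are not given, so the counts are not read as particular to the members.

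**Figure D4:**
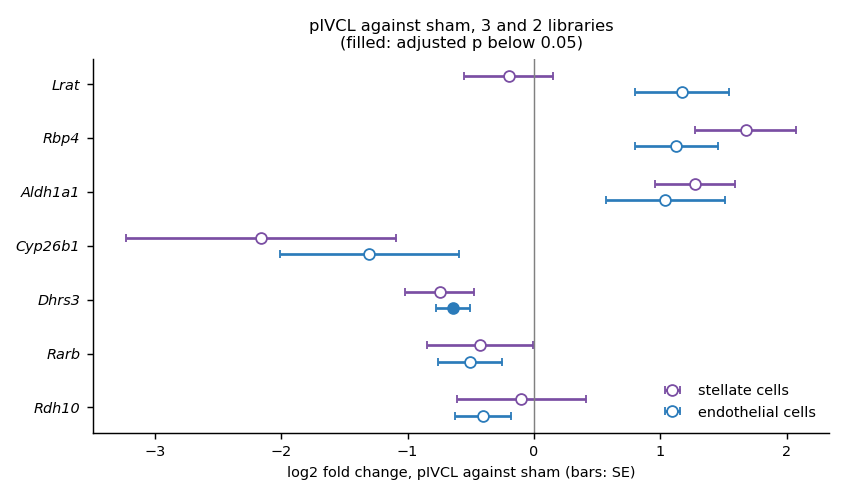
Log2 fold change of pIVCL over sham with SE for the 7 members in stellate and endothelial cells (edgeR quasi-likelihood fit, 3 against 2 libraries). Dhrs3 in endothelium (−0.64 ± 0.14) is the single filled point, with an adjusted p under 0.05.

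In endothelium 1 of 7 members was called, where 5.32% of 11315 genes were (2.68% lower). Dhrs3 was lower in pIVCL by a log2 fold change of −0.64 ± 0.14 (adjusted p = 0.036), from 487 ± 8.27 CPM in sham to 333 ± 35.8 CPM in pIVCL. Lrat was at 1.17 ± 0.37 (adjusted p = 0.11) and Rbp4 at 1.13 ± 0.33 (adjusted p = 0.091), both at levels not told apart from background. The remaining values were 1.04 ± 0.47 for Aldh1a1 (adjusted p = 0.23), −1.30 ± 0.71 for Cyp26b1 (adjusted p = 0.34), −0.40 ± 0.22 for Rdh10 (adjusted p = 0.31) and −0.51 ± 0.25 for Rarb (adjusted p = 0.27). DESeq2 called 2 members, Rbp4 and Dhrs3. The Dhrs3 call did not hold without sham 1 (adjusted p = 0.26), sham 2 (0.29), pIVCL 2 (0.10) or pIVCL 3 (0.10), with batch as a term (0.12) or with the replicate block (0.11). With batch as a term, which rests on pIVCL 1 against sham, Rbp4 (1.61, adjusted p = 0.010) and Aldh1a1 (1.72, adjusted p = 0.031) were called instead, and Rbp4 was also called with the replicate block (1.28, adjusted p = 0.017). The hepatocyte-list share of these endothelial sums was higher in every pIVCL library than in sham, and its part in these values was not tested. The Dhrs3 log2 fold change stayed between −0.72 and −0.56 when single libraries were left out.

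Since the groups differed in the clusters that held most endothelial cells, Dhrs3 levels were also set out by cluster. Of 9 endothelial clusters, 5 had overlapping levels in the groups, cluster 21 among them (321 and 342 CPM in sham, 335, 262 and 324 CPM in pIVCL). In the other 4 of the 9 clusters all pIVCL libraries lay below sham. These were the Wnt9b, Edn1 and Vwf cluster given above, cluster 9 (358 and 389 CPM in sham, 327, 265 and 297 CPM in pIVCL), cluster 10 (595 and 597 CPM in sham, 571 and 462 CPM in pIVCL 1 and pIVCL 2, with no cell of pIVCL 3) and cluster 5, which had only 3 and 5 sham cells. How much of the difference lay between and within clusters was not tested, and how often all genes separate in this way was not counted. Without large-vessel and cycling cells, the log2 fold change was −0.71 ± 0.14 (adjusted p = 0.020).

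The other classes tested gave no member calls. Hepatocytes, cholangiocytes, fibroblasts, B cells, plasmacytoid dendritic cells and neutrophils were not tested between the groups. In Kupffer cells 0 of 6 tested members were called (0.0508% of 9841 genes, 1358 with p below 0.05), and DESeq2 called 0. Of the members, 1 (Rbp4) had an unadjusted p below 0.05, and Dhrs3 was at 0.17 ± 0.13. In T cells 0 of 5 tested were called (0% of 7624 genes, 349 with p below 0.05; no member below it). In conventional dendritic cells 0 of 2 were called (0.192% of 6257 genes, 575 with p below 0.05). Both, Rbp4 and Dhrs3, had an unadjusted p below 0.05. In monocytes 0 of 2 were called (0.396% of 6056 genes, 572 with p below 0.05, no member below it). DESeq2 called 0 members in these 3 classes. In NK cells and ILC1 no member passed the filter on low counts.

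The interaction test called Lrat for a group effect that differed between the classes, although the group test called it in neither class. Its log2 difference of effects, stellate minus endothelial, was −1.37 ± 0.23 (adjusted p = 0.0057, edgeR interaction), 1 of 7 members where 0.562% of 11389 genes were called. The endothelial side of it rested on 21 to 51 Lrat molecules per library, at levels within the T-cell range and not told apart from background. Without sham 1, sham 2 or pIVCL 2 the call was lost (adjusted p = 0.065, 0.16 and 0.070).

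Within the sinusoidal endothelium, Rarb and Dhrs3 were higher in the cells ranked most pericentral by marker genes. Cells were ranked in each library by the summed share of 10 pericentral minus 7 periportal markers, none of them a member, and cut into tertiles of equal size (200 to 802 cells each). Rarb was at 52.5 and 71.0 CPM in the periportal tertile of sham and at 126 and 157 CPM in the pericentral tertile. In pIVCL it was at 70.1, 30.8 and 63.2 CPM in the periportal tertile and at 101, 68.7 and 103 CPM in the pericentral tertile. The pericentral tertile was the higher in 5 of 5 libraries.

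Dhrs3 had the same direction. It was at 403 and 416 CPM in the periportal tertile of sham and at 615 and 611 CPM in the pericentral tertile. The pIVCL values were 307, 249 and 307 CPM and 405, 348 and 408 CPM. Here too the pericentral tertile was the higher in 5 of 5 libraries. Cyp26b1 was at 483 and 1655 CPM periportally and 620 and 1758 CPM pericentrally in sham, but at 1034, 399 and 674 CPM periportally and 505, 96.5 and 385 CPM pericentrally in pIVCL. It was higher pericentrally in both sham libraries and lower in all 3 pIVCL libraries.

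**Figure D5:**
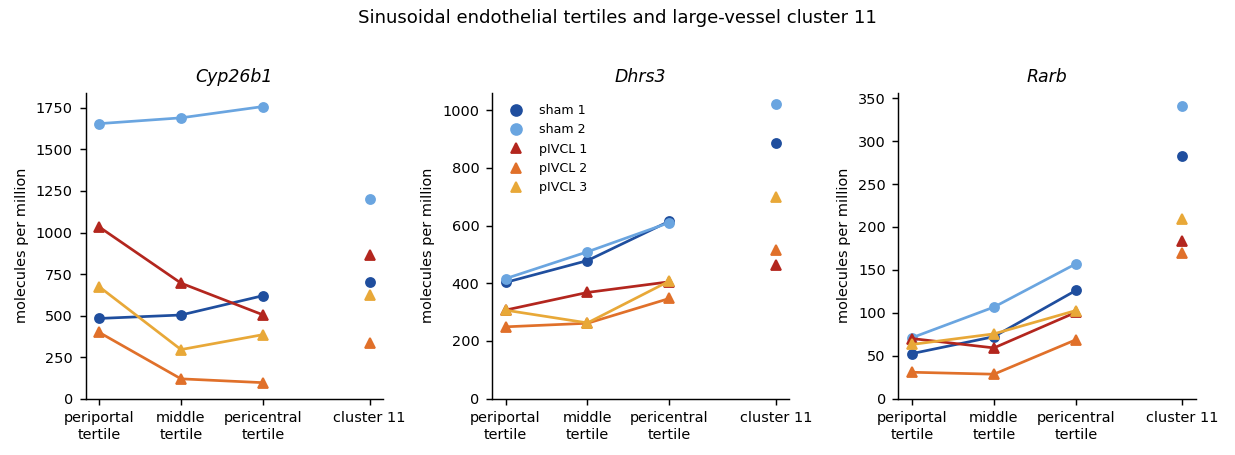
CPM of Cyp26b1, Dhrs3 and Rarb in the periportal, middle and pericentral tertiles of sinusoidal endothelium, 1 line per library, and in the large-vessel cluster 11, led by Wnt9b, Edn1 and Vwf, as separate points. Dhrs3 and Rarb end higher in the pericentral than in the periportal tertile in all 5 libraries. Cyp26b1 ends higher in both sham lines (620 and 1758 CPM) and lower in the 3 pIVCL lines.

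By edgeR's test with the library as a block, the pericentral tertile exceeded the periportal tertile by a log2 difference of 1.01 ± 0.11 for Rarb (adjusted p = 2.3e-06) and 0.51 ± 0.06 for Dhrs3 (adjusted p = 1.7e-05). These were 2 of 7 members, where 12.2% of 10149 genes were called. Cyp26b1 was at −0.61 ± 0.42 (adjusted p = 0.51) and Rdh10 at 0.03. Of the other retinoid genes, 4 of 40 tested were higher pericentrally (Rai14, Scarb1, Dhrs7 and Tgm2) and 3 lower, namely Pnpla2, a triglyceride lipase (−0.99), Fabp5, a fatty acid and retinoic acid carrier (−0.69), and Lipa, the lysosomal acid lipase (−0.32).

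Whether the ligation acted differently on the zones was tested as an interaction, in which 3.84% of 10149 genes and 0 of 7 members were called. Unadjusted, 1445 of the 10149 genes had p below 0.05. The 2 members among them were Cyp26b1 (−1.48 ± 0.40, adjusted p = 0.25) and Rarb (−0.48 ± 0.17, adjusted p = 0.11). DESeq2 called Cyp26b1 (adjusted p = 0.037, among 3 members with an adjusted value), and edgeR called both genes without pIVCL 2. Dhrs3 was at −0.18 ± 0.10 (adjusted p = 0.43). The tertiles are ranks and not fixed positions. In the pericentral tertile, the pericentral markers summed to 4956 and 4170 CPM in sham and to 3007, 2750 and 3244 CPM in pIVCL. The periportal markers there summed to 1227 and 1453 CPM in sham and to 1817, 2155 and 2001 CPM in pIVCL. The lowest score in that tertile was 1171 and 212 CPM in sham and −1354, −1907 and −1226 CPM in pIVCL. The part of these marker levels in the differences was not tested.

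Around the members, a list of 78 retinoid genes (76 in the files) covered binding and uptake, esters, oxidation and reduction, breakdown, receptors and reported targets. In stellate cells 0 of 37 tested were called by edgeR, with a median log2 fold change of 0.05 against 0.01 over all genes. Unadjusted, 5 had p below 0.05, where 913 of all 8000 genes did, and DESeq2 called 0. Stra6, a retinol uptake receptor, gave 1 molecule in sham 1 and 0 in the other stellate sums. Crabp1 and Aldh1a2 gave 0 in all 5, where a count of 0 allows up to 1.65 CPM in the deepest sum and 14.8 CPM in the shallowest. Of a stellate activation list, 3 of 13 tested were called higher in pIVCL (0.488% of all stellate genes were called in either direction), among them Ccn2 (1.94, adjusted p = 0.0036) and Tnc (2.11, adjusted p = 0.028), both matrix-associated proteins. The third, Lox, which crosslinks collagen, had 0 molecules in both sham sums and 36, 85 and 25 in pIVCL, at least 3.22-fold higher against a floor of 3 molecules per sham library. None of the 13 was called without sham 2, only Ccn2 without sham 1, pIVCL 2 or pIVCL 3, and 7 without pIVCL 1. Acta2, the smooth muscle actin of activated stellate cells, was at 0.08, and Postn (−0.34) and Loxl1 (−0.58) were below 0, none of these called. The median of this list was 1.04, with or without Lox at that bound, against 0.01. Of a quiescence list, 0 of 15 were called (median 0.41).

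In endothelium 6 of 46 tested retinoid genes were called, 3 higher and 3 lower, where 5.32% of all endothelial genes were called (median 0.17 against −0.00 over all genes). Scarb1 rose from 115 and 121 CPM to 216, 215 and 276 CPM (log2 fold change 0.90 ± 0.13, adjusted p = 0.010), and Pnpla2 from 54.9 and 56.3 CPM to 126, 121 and 89.5 CPM (0.93 ± 0.19, adjusted p = 0.029). Cyp26a1, the other main retinoic acid hydroxylase of the liver, rose by 2.36 ± 0.55 (adjusted p = 0.047) on few molecules, 8 and 13 in sham and 23, 23 and 25 in pIVCL. Rarg, the retinoic acid receptor gamma, fell from 236 and 228 CPM to 135, 163 and 124 CPM (log2 fold change −0.80 ± 0.15, adjusted p = 0.025). Tgm2, a transglutaminase induced by retinoic acid, fell by 0.76 on the log2 scale (adjusted p = 0.012) and Dhrs7, a relative of Dhrs3, by 0.66 (adjusted p = 0.033). None of the 6 was called without sham 1 or without sham 2, 3 genes were called without pIVCL 3, and 14 genes were called without pIVCL 1. The receptor genes Rxra and Rara were not called (log2 fold changes −0.23, adjusted p = 0.32, and 0.30, adjusted p = 0.48). In Kupffer cells 0 of 36 were called by edgeR (8 with an unadjusted p below 0.05, where 1358 of all 9841 genes had one, DESeq2 1).

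Genes whose levels over 11 cell classes were most like each member's were found by Pearson's r of log2(CPM + 1), given as a description. For Lrat these were Wfdc1 (0.979), Dcn (0.977) and Adra2b (0.976), and for Rbp4 they were Gc (0.996), Gstz1 (0.992) and Serpina1c (0.990). Cyp26b1 was most like Galnt18 (0.983), Cdkn1c (0.977) and Cldn5 (0.975), and Aldh1a1 most like Me1 (0.988), Gstt1 (0.985) and Hspb8 (0.97). Dhrs3 was followed most closely by Mib1 (0.959), Fnbp1l (0.955) and Gkap1 (0.949), and Rarb by Nynrin (0.962), Ephb4 (0.958) and Prex2 (0.957). Rdh10 had no close companion, its highest r being 0.816 with Cisd3. The classes share the same 5 libraries and differ in depth.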

How the data were processed

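Liver non-parenchymal cells of 5 libraries (2 sham, 3 pIVCL) were analysed. Each deposited file gives, per the file headers, a molecule count for every cell and gene with identifiers corrected, made with BD WTA Rhapsody Analysis Pipeline 1.9.1 on GRCm39, per the submitters' processing notes. The aligner is not given in the sources used here.

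From these counts, cells with at least 500 molecules, 200 genes and at most 25% mitochondrial molecules were kept (17188 of 19815). The 3% of cells with the highest doublet score (516) were removed, since the automatic threshold marked 14 cells (0.0815%). Leiden clustering in scanpy 1.11.5, with the members and the retinoid list left out of the 2000 variable genes, gave 35 clusters after the fibroblast cluster was split. Clusters were named from fixed markers, and 1236 cells stayed unnamed. Free RNA was not corrected. Sums per library were tested with edgeR 4.0.16 (R 4.3.3; TMM, filterByExpr, robust quasi-likelihood, Benjamini-Hochberg at 0.05), with DESeq2 1.42.0 as an alternative. Log2 fold changes carry the SE implied by the F statistic. CPM values are untransformed shares of the class total. Floors cover counting error only. The method was tested on simulated data: in endothelium 62% of 2-fold changes were recovered.

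Members, lists and tests were chosen with earlier results of these data known. The naming rule took all 7 members, the retinoid genes past the threshold, a few others whatever they did, and the 3 genes most like each member. Library, zone, class, batch, filter and thinning choices were varied, and the closing section gives their effect.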

Additional observations from a re-analysis of the deposited data

Results flagged for a closer look

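An interaction test in edgeR called 5 genes for a group effect that differed between zones or classes. Between zones, 3 of 40 retinoid genes were called higher, 1 lower and 0 of 7 members, where 3.84% of 10149 genes were called. Between classes, 0 of 44 retinoid genes and 1 of 7 members were called, where 0.562% of 11389 genes were. The zone tertiles are ranks whose pericentral and periportal marker levels differed between the groups, as given above. A positive value means a pIVCL effect that was higher in the class or zone named first. Between pericentral and periportal endothelium, the log2 difference of effects was 1.10 ± 0.10 for Cd36, a scavenger receptor and fatty acid transporter (adjusted p = 1.1e-09), and 0.67 ± 0.12 for Scarb1 (adjusted p = 0.00032). It was 0.73 ± 0.17 for Hoxa5, a homeobox gene reported to respond to retinoic acid (adjusted p = 0.0098), and −0.52 ± 0.13 for Rarg (adjusted p = 0.0086). Between stellate cells and endothelium it was −1.37 ± 0.23 for Lrat (adjusted p = 0.0057), whose endothelial level was not told apart from background. Cd36 and Scarb1 were also called with DESeq2 and without each library in turn. Rarg was not called with DESeq2 (adjusted p = 0.12), without sham 1 (0.23) or without pIVCL 3 (0.050), and Hoxa5 not with DESeq2 (0.068) or without sham 1 (0.088), pIVCL 2 (0.10) or pIVCL 3 (0.077). The Lrat call was lost without sham 1 (0.065), sham 2 (0.16) or pIVCL 2 (0.070).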

How the results depend on the processing

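Of 821 alternative values, 665 were labelled as the same. For 471 of these, all log2 fold changes, this meant the same direction and side of the threshold. For the other 194 it meant a similar count of calls, or a share or ratio within the SD over libraries. Alternatives added after seeing the data were sinusoidal cells alone (1 endothelial call, Dhrs3) and sham or pIVCL libraries alone. Stellate member calls, 0 in the analysis reported, became 2 with no expression filter, 3 with batch as a term, in batch 2021.3 alone and with the replicate block, and 1 with fibroblasts joined or doublets kept (0 to 1 without single libraries). Endothelial member calls, 1 as reported, became 6 with no filter, 2 with DESeq2 or batch as a term and 4 in batch 2021.3 alone (0 to 1 without single libraries). With no filter, 1 member each was called in Kupffer cells, dendritic cells, monocytes and NK cells. Dendritic cells gave 1 call with the replicate block and 0 to 1 without single libraries, and monocytes 1 in batch 2021.3 alone. The zone interaction gave 1 member call with DESeq2 and with members allowed among variable genes (0 to 2 without single libraries), and the class interaction 0 to 1. Shares over all genes, such as 5.32% in endothelium and 0.488% in stellate cells, belong to the analysis reported. They are not given for the alternatives, so the counts in this section are not read as particular to the members or lists.

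Retinoid genes called in endothelium, 6 as reported, were 11 with no filter, 3 with batch as a term, 3 with the replicate block and 0 to 14 without single libraries. In stellate cells, 0 as reported, they were 2 with no filter, 4 with batch as a term or in batch 2021.3 alone, 1 with the replicate block and 0 to 1 without single libraries. Activation genes, 3 as reported, were 9 with no filter, 5 with DESeq2, stricter cell filters or doublets kept, 6 with batch as a term or the replicate block, and 0 to 7 without single libraries. Retinoid genes in the zone interaction, 4 as reported, were 2 with DESeq2 and 2 to 5 without single libraries. Same-numbered libraries did not deviate together (correlations −0.087 and −0.004), so the block adds only a shared number.

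Mean shares of cells with a molecule, thinned to 2000 and unthinned, were 86.6 and 93.9% for Lrat and 47.4 and 67.2% for Aldh1a1 in stellate cells, and 48.9 and 71.9% for Dhrs3 and 12.9 and 25.8% for Rarb in endothelium. Unthinned Cyp26b1 was at 57.1%. Directions reversed, none of them past the threshold except the last, for stellate Rarb with stricter filters (0.13), stellate Lrat with batch as a term (0.42), in batch 2021.3 alone (0.40), with fibroblasts (0.29) and without pIVCL 2 (range without single libraries −0.63 to 0.051), stellate Rdh10 with fibroblasts (0.12) and without sham 2 (range −0.39 to 0.16), stellate Cyp26b1 without sham 2 (range −3.05 to 0.025), and the Cyp26b1 zone difference in sham libraries alone (0.23, adjusted p = 8.4e-08 with few residual degrees of freedom). The cause was not tested. The stellate result is limited by sham sums of only 34 and 76 cells.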
